A study of Mus musculus with 6 samples.

Results

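*H2ac24*, *Gm10076*, *Gstp1* and *Erh* were 4 of the 12436 genes in the deposited expression tables of single cells from mouse tibialis anterior muscle (TAM). They were taken by gene symbol. They were chosen by their measured levels in these same tables, because those differed between libraries, so the levels given here are a description and carry no test. The working description of the set, genes that mark a library in every cell, did not hold in full. In hypothyroid 5 dpi run 1, where *H2ac24*, *Gm10076* and *Erh* stood highest and *Gstp1* was among the highest, 95.8% of cells had a UMI (a counted RNA molecule) of *Gm10076*, 68.3% of *Erh*, 50.0% of *Gstp1* and only 16.7% of *H2ac24*.

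The study asked how a lack of thyroid hormone alters muscle repair. All mice were male, 3 to 5 months old, and carried a FUCCI cell cycle reporter, the allele Gt(ROSA)26Sor<tm1(Fucci2aR)Jkn on a B6;129 background, without the Cre allele that would switch it on. Hypothyroid mice ate food low in iodine with 0.15% PTU (propylthiouracil, a drug that blocks thyroid hormone synthesis), begun 3 weeks before injury, and control mice ate the matched food. The right TAM was taken uninjured (0 dpi) or 5 or 14 days after injury (5 and 14 dpi) with cardiotoxin (CTX, 50 µg/ml), a venom toxin that kills muscle fibres. The cells of 3 mice were pooled in each library, and red cells and dead cells were removed, so each of the 6 conditions was 1 library of a 10x 3′ kit, and neither mice nor diets had replicates. The batch field of the labels held the day, which both diets of a day shared.

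Each deposited table was read as runs of columns, a run ending where the cell barcodes left alphabetical order, and this gave 13 runs in the 6 tables. As a premise, the diet and day of a table were applied to its run 1 only (11207 cells). The later runs (9062 columns) are named by the table that held them, and their condition is unknown. All cells in run 2 of the control 0 dpi table also stood in run 1 of the hypothyroid 14 dpi table. Those in run 2 of the hypothyroid 0 dpi table also stood in run 1 of the control 5 dpi table. The later run is called the copy by rule, since the direction of copying was not measured. This left 11 distinct runs of 528 to 3294 cells and 2283704 to 23496414 UMIs (median per cell 3634 to 8055). Of 18556 barcodes, 33 stood in more than 1 distinct run, with at most 4 for a pair of runs. Hypothyroid 5 dpi run 1 stood apart from the rest. It had the most UMIs per cell, the lowest share of mitochondrial UMIs (2.26%, against 2.82% to 4.32% in the other 10), a haemoglobin level of 1.23 CPM (UMIs scaled to the same total in every run) against 245 to 4652, and a summed level of muscle fibre markers of 249 CPM against 1337 to 22740. The part of these differences in the levels of the 4 genes was not tested.

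Histone H2A, which *H2ac24* encodes, is one of the core proteins that DNA winds around. The histone genes of its class are copied many times over in clusters, are transcribed mostly while a cell replicates its DNA, and give RNAs that usually end in a stem-loop instead of a poly(A) tail, the feature by which a 3′ kit captures RNA. *Gm10076* is a predicted gene that the annotation lists as a long non-coding RNA, although it holds the coding sequence of *Rpl41*, the gene of a very small protein of the large ribosomal subunit. *Gstp1* encodes the pi class glutathione S-transferase, an enzyme that joins glutathione to reactive compounds, and *Erh* encodes a small conserved nuclear protein that binds the microRNA processing factor DGCR8.

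In the GRCm39 mouse genome *H2ac24* lay at chr13:22017196-22017677 on the minus strand as a single exon of 482 bases, and *Gm10076* at chr14:105919259-105919665 on the plus strand with 2 exons. *Gstp1* lay at chr19:4085407-4087985 on the minus strand with 7 exons and *Erh* at chr12:80680796-80691115 on the minus strand with 5 exons. These sequences are shown because each of the 4 genes shared a long exact stretch with another place in the genome. They are stretches of coding sequence of *H2ac24*, *Gstp1*, *Erh* and *Rpl41*, with their matches at other places. The matches in *Gstp-ps*, a processed pseudogene, and in *Gm10076* are not annotated as coding. All are from the reference, written 5′ to 3′ on the strand of the gene, and a capital marks a base that differs from the member. The 3′ kit reads the end of an RNA, so a read need not fall in the stretch shown. The last 120 coding bases of *H2ac24* (chr13:22017256-22017375, minus strand) stood unchanged in *H2ac23* (chr13:21994907-21995026, plus strand) and with 1 difference in *H2ac8* (chr13:23754893-23755012, minus strand).
H2ac24: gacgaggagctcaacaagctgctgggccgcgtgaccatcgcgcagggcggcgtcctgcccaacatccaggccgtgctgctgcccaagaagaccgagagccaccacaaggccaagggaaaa
H2ac23: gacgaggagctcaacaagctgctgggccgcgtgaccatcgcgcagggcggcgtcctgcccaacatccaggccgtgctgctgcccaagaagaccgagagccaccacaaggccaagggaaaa
H2ac8: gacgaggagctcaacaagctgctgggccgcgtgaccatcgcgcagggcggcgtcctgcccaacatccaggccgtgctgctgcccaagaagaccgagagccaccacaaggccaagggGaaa

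The last 120 coding bases of *Gstp1* (chr19:4085476-4085595, minus strand) stood unchanged in its neighbour *Gstp2* (chr19:4090354-4090473, minus strand) and in the processed pseudogene *Gstp-ps* (chr1:191758123-191758242, minus strand).
Gstp1: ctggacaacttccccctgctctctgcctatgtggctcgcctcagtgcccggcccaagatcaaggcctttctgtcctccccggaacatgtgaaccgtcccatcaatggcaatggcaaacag
Gstp2: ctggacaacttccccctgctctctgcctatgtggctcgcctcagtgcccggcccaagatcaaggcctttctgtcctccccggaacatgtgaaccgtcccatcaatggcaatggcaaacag
Gstp-ps: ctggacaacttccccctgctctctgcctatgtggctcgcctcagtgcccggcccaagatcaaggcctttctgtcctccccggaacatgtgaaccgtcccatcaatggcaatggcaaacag

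The last 100 coding bases of *Erh* (chr12:80681202-80681301, minus strand) stood unchanged in *Erhrt-ps* (chr8:34578545-34578644, minus strand). The coding part of *Rpl41* without its stop codon (75 bases spliced from chr10:128384259-128384829, minus strand) stood unchanged in *Gm10076* (chr14:105919303-105919377, plus strand).
Erh: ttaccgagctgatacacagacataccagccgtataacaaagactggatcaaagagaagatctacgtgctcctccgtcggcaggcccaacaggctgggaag
Erhrt-ps: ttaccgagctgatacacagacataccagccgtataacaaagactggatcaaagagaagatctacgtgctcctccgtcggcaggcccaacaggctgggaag
Rpl41: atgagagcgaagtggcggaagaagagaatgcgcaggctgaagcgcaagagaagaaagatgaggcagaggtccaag
Gm10076: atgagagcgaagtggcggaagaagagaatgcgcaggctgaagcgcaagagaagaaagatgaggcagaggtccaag

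Over whole transcripts, read as overlapping windows of 100 bases, all 383 windows of *H2ac24* occurred elsewhere in the genome, and all 383 occurred in *H2ac23*. Of the windows of *Gstp1*, 276 of 805 did, 270 of them in one block of *Gstp-ps*. Of those of *Erh*, 474 of 1254 did, most of them in *Erhrt-ps*. Of those of *Gm10076*, 59 of 268 did, 51 of them in *Rpl41*. Matches were sought in the unspliced genome, so a window that spans a splice junction of the other gene was missed. These counts and the shares below can therefore understate what is shared with a spliced RNA, as for *Gm10076* and the spliced coding part of *Rpl41*. In the last 400 bases, which a 3′ kit reads, copied windows made up every window in *H2ac24*, 89.7% in *Gstp1*, 86.4% in *Erh* and 22.01% in *Gm10076*. Of the 10933 genes with at least 500 UMIs and a matched transcript, 7.77% held any such window there. Of 12421 genes matched by gene identifier, 4032 had the same start and 4056 the same end in the annotation used here as in the deposited gene positions. The last 400 bases read here may thus differ from the 3′ ends that were counted. How the counting assigned reads that fit more than 1 place was not given in the sources used here, so the levels of the 4 genes are uncertain to that extent. *H2ac23* was not analysed here.

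The plot of levels by run shows the 4 genes in all 13 runs. Levels are CPM of the UMIs summed over the cells of a run. Their 95% intervals are exact Poisson intervals, which like all intervals here cover counting error only and not the difference between mice.

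**Figure D1:**
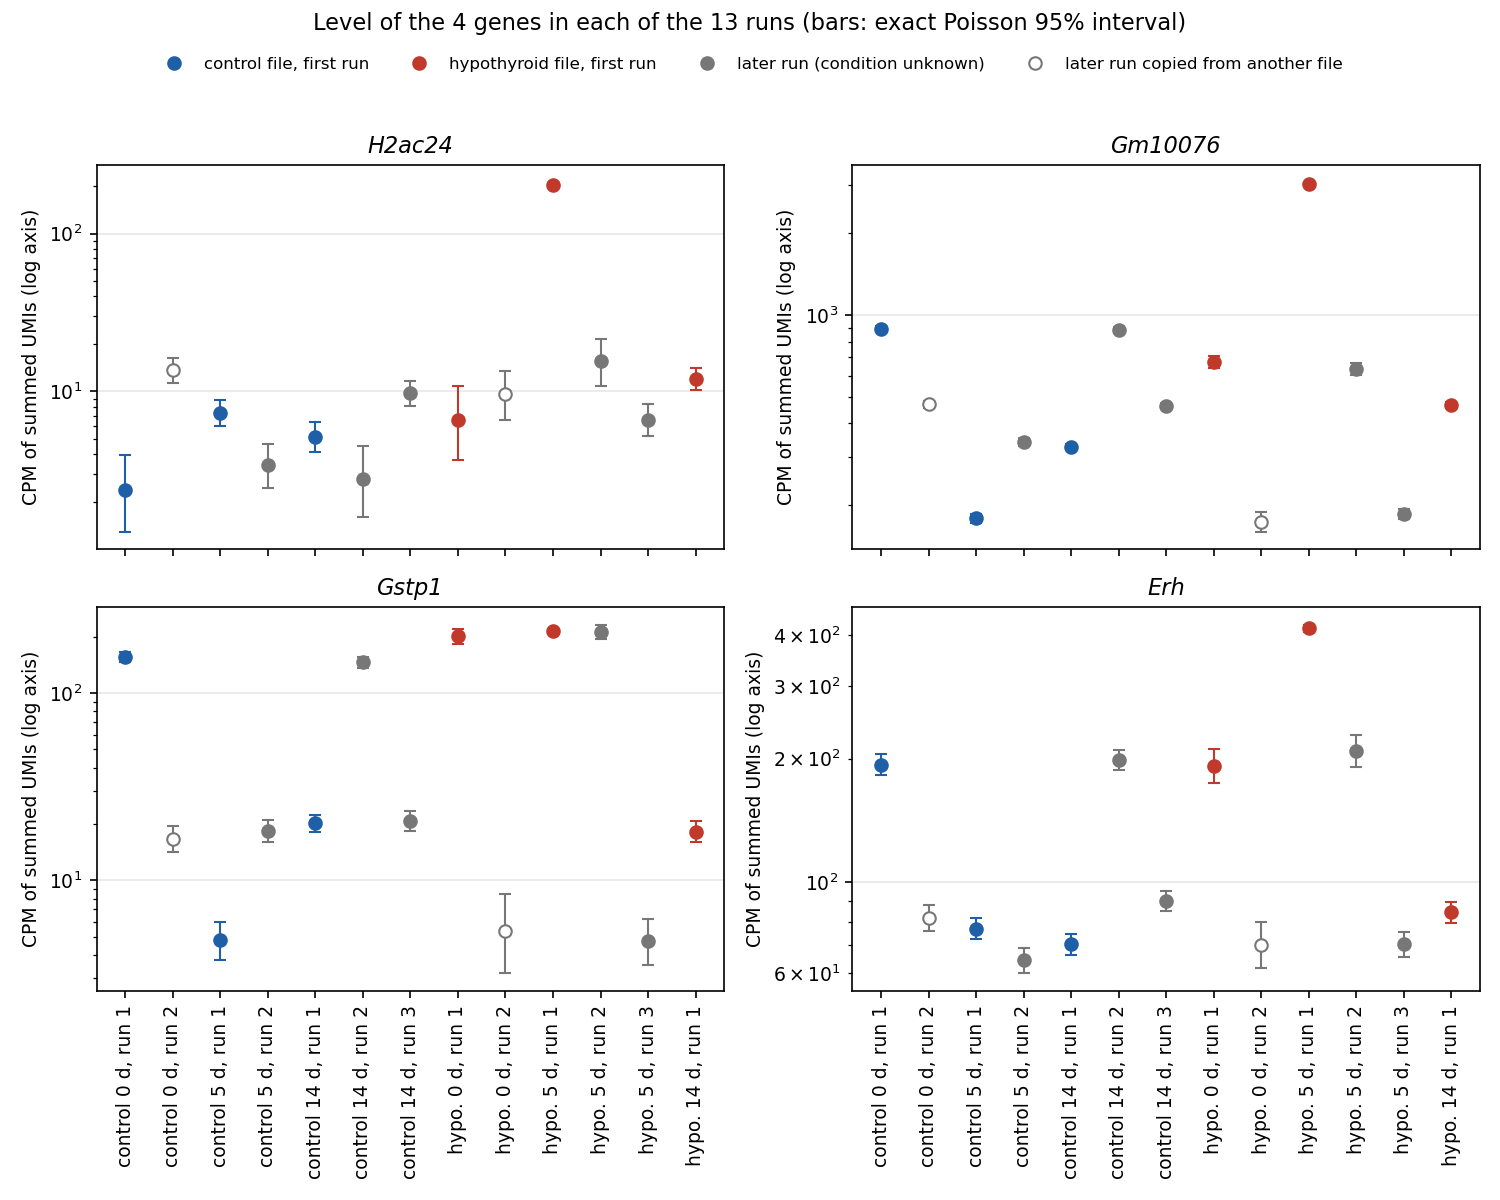
CPM of summed UMIs (log axis) of the 4 genes in each of the 13 runs, with exact Poisson 95% intervals as bars. Blue and red points are the labelled first runs, grey points the later runs of unknown condition, and open points the 2 copied runs. *H2ac24* and *Gm10076* stood highest in hypothyroid 5 dpi run 1, at 204 and 3043 CPM, while *Gstp1* lay above 100 CPM in 5 distinct runs.

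*Gstp1* split the runs most evenly. In the first runs its level was 155 CPM in control 0 dpi, 4.79 in control 5 dpi, 20.2 in control 14 dpi, 201 in hypothyroid 0 dpi, 214 in hypothyroid 5 dpi and 18.2 in hypothyroid 14 dpi. In the later runs it was 18.4 in control 5 dpi run 2, 146 in control 14 dpi run 2, 20.8 in control 14 dpi run 3, 212 in hypothyroid 5 dpi run 2 and 4.76 in hypothyroid 5 dpi run 3. Thus 5 runs, 3 of them first runs of the uninjured tables or of hypothyroid 5 dpi, lay at 146 CPM or more, 4 lay between 18.2 and 20.8, and 2 lay under 5. The step from the upper 5 to the other 6 was 7.01-fold (95% interval 6.10 to 8.07), a gap of 2.75 on the log2(CPM + 1) scale. The interval of hypothyroid 5 dpi run 1 (209 to 220) overlapped those of hypothyroid 5 dpi run 2 (194 to 232) and hypothyroid 0 dpi run 1 (183 to 219.8). Among the 4 runs between 18.2 and 20.8 CPM, and between the 2 lowest, the intervals overlapped.

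*Erh* split the runs at the same place but less widely. The first runs held 193 CPM in control 0 dpi, 77.0 in control 5 dpi, 70.5 in control 14 dpi, 192 in hypothyroid 0 dpi, 416 in hypothyroid 5 dpi and 84.3 in hypothyroid 14 dpi. The later runs held 64.4 in control 5 dpi run 2, 198 in control 14 dpi run 2, 89.9 in control 14 dpi run 3, 209 in hypothyroid 5 dpi run 2 and 70.4 in hypothyroid 5 dpi run 3. The upper 5 runs were the same as for *Gstp1*, and the step below them was 2.14-fold (1.91 to 2.39). In FAP-like cells (fibro-adipogenic progenitors, gated by markers) the widest gap of *Erh* lay elsewhere, with hypothyroid 5 dpi run 1 alone above it (1.27 on the log2 scale), while that of *Gstp1* set apart the same 5 runs. Within the upper 5, hypothyroid 5 dpi run 1 lay alone above the other 4, whose intervals overlapped. Of 10940 genes with at least 500 UMIs, 34 put exactly these 5 runs above their widest gap, 9 of them with a gap of at least 1 on the log2 scale. Another 122 put exactly these 5 runs below it, 15 of them with a gap of at least 1. The runs are not independent samples. Over the other genes, as given below, control 0 dpi run 1 was nearest to control 14 dpi run 2. Likewise hypothyroid 0 dpi run 1 was nearest to hypothyroid 5 dpi run 2.

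*Gm10076* placed the runs on a ladder. Its level in the first runs was 891 CPM in control 0 dpi, 179 in control 5 dpi, 328 in control 14 dpi, 676 in hypothyroid 0 dpi, 3043 in hypothyroid 5 dpi and 469 in hypothyroid 14 dpi. In the later runs it was 342 in control 5 dpi run 2, 883 in control 14 dpi run 2, 465 in control 14 dpi run 3, 637 in hypothyroid 5 dpi run 2 and 186 in hypothyroid 5 dpi run 3. Sorted by level the runs formed 5 pairs with overlapping intervals, the pairs did not overlap one another, and hypothyroid 5 dpi run 1 stood above them all, 3.41-fold (3.32 to 3.51) over control 0 dpi run 1.

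*H2ac24* was scarce in 10 of the 11 distinct runs. Its level was 2.36 CPM in control 0 dpi, 7.32 in control 5 dpi, 5.16 in control 14 dpi, 6.57 in hypothyroid 0 dpi, 204 in hypothyroid 5 dpi and 11.97 in hypothyroid 14 dpi among first runs. The later runs held 3.42 in control 5 dpi run 2, 2.79 in control 14 dpi run 2, 9.73 in control 14 dpi run 3, 15.5 in hypothyroid 5 dpi run 2 and 6.63 in hypothyroid 5 dpi run 3. Hypothyroid 5 dpi run 1 thus lay alone, 13.2-fold (9.50 to 18.8) above the next run, a gap of 3.64 on the log2(CPM + 1) scale. In that next run, hypothyroid 5 dpi run 2, 1 cell held 27 of the 36 *H2ac24* UMIs. The other 10 rested on 14 to 157 UMIs each, and each neighbouring pair in their order had overlapping intervals. Over all 10940 genes a gap of at least 1 was seen in 12.6% and of at least 2.5 in 0.612%, and by gap the 4 genes stood at places 13 (*H2ac24*), 46 (*Gstp1*), 322 (*Gm10076*) and 1158 (*Erh*).

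The share of cells with a UMI differed in the same way. In hypothyroid 5 dpi run 1 and control 5 dpi run 1 it was 95.8% and 48.7% for *Gm10076*, 68.3% and 24.3% for *Erh*, 50.0% and 2.88% for *Gstp1* and 16.7% and 3.17% for *H2ac24*. After each cell was thinned to 1000 UMIs (131 and 113 shallower cells left out) it was 89.2% and 14.1% for *Gm10076*, 25.5% and 5.53% for *Erh*, 13.2% and 0.346% for *Gstp1*, and 6.77% and 0.302% for *H2ac24*. These runs therefore differed at equal depth too, although the thinned share of *Gstp1* was higher in hypothyroid 0 dpi run 1 (16.5%) and hypothyroid 5 dpi run 2 (15.4%). No gated cell type is known to lack these genes, so no background share from free RNA could be set beside them. Within hypothyroid 5 dpi run 1 the 10% of cells richest in each gene held 96.9% of all *H2ac24* UMIs, with up to 171 in a cell, but 33.8% of those of *Gm10076*, 47.3% of those of *Erh* and 53.0% of those of *Gstp1*. When each run was divided into 4 stretches of equal cell number in column order, *Gm10076* lay between 2919 and 3107 CPM in the stretches of hypothyroid 5 dpi run 1 and between 169 and 190 in those of control 5 dpi run 1, and *Gstp1* between 198 and 232 and between 4.13 and 5.66, so in these runs the stretches differed far less than the runs did.

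Runs of the same table also differed widely. Within the hypothyroid 5 dpi table the highest over the lowest run was 45.03-fold for *Gstp1* (34.2 to 60.6), 30.8-fold for *H2ac24* (24.4 to 39.5), 16.4-fold for *Gm10076* (15.6 to 17.1) and 5.91-fold for *Erh* (5.48 to 6.37). Within the control 14 dpi table it was 7.22-fold for *Gstp1*, 3.49-fold for *H2ac24*, 2.69-fold for *Gm10076* and 2.81-fold for *Erh*. Each of the tables with more than 1 run had a step of at least 3.84-fold in *Gstp1*, which reached 37.2-fold in the hypothyroid 0 dpi table, whose run 2 was the copy from control 5 dpi. A mean over all columns of these tables thus mixed runs with different levels of *Gstp1*. Some steps of the other genes were small. *H2ac24* in the hypothyroid 0 dpi table was at 1.46-fold (0.767 to 2.90), which holds 1. *Erh* in the control 5 dpi table was at 1.20-fold (1.09 to 1.31).

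Runs were also matched by the other 10936 genes with at least 500 UMIs, leaving out the 4. By Pearson's correlation of log2(CPM + 1), 10 runs formed 5 pairs, each the nearest of the other (r = 0.976 to 0.996), and hypothyroid 5 dpi run 1 had no close partner (r = 0.928). The pairs were control 0 dpi run 1 with control 14 dpi run 2, control 5 dpi run 1 with hypothyroid 5 dpi run 3, control 14 dpi run 1 with control 5 dpi run 2, hypothyroid 14 dpi run 1 with control 14 dpi run 3, and hypothyroid 0 dpi run 1 with hypothyroid 5 dpi run 2. Each pair held 1 first run. All 5 pairs joined runs of different tables, and 2 of them joined a table of each diet. Whether the runs of a pair came from 1 library or from separate libraries that were alike was not tested.

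Within these pairs the levels of the 4 genes were close. The ratio between the runs of a pair lay between 0.961 and 1.06 for *Gm10076*, between 0.913 and 1.14 for *Gstp1* and between 0.913 and 1.09 for *Erh*, and each of those intervals held 1. For *H2ac24* the ratio ran from 0.424 to 1.10, and 2 of 5 intervals left out 1. These were 0.424 (0.216 to 0.794) for hypothyroid 0 dpi run 1 over hypothyroid 5 dpi run 2 and 0.663 (0.444 to 0.977) for control 5 dpi run 2 over control 14 dpi run 1. The richest cell held 27 of 36 *H2ac24* UMIs in hypothyroid 5 dpi run 2 and 8 of 15 in its partner. It held 23 of 40 in control 5 dpi run 2 and 19 of 85 in its partner. The 2 intervals do not allow for this clumping. At least 2-fold either way within a pair were 0.133% to 0.552% of genes (0.133, 0.212, 0.32, 0.36 and 0.552%), against 1963 of 10344 genes between hypothyroid 5 dpi run 1 and its nearest run. The ladder of *Gm10076* followed the 5 pairs in full, and the level of *Gstp1* put 4 of the runs, those of the pairs from the 14 dpi first runs, together at about 20 CPM.

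Cells were next gated by marker genes, to see whether the runs differed within a type or through their mix of types. A cell was gated to the type with the most of its 5 to 8 measured markers seen (at least 3, and at least 2 more than for any other type), which gave 38 strata (a run and a type) of at least 30 cells in the distinct runs. The markers of a type were higher in its own gate than elsewhere, for instance 40720 against 13210 CPM for fibro-adipogenic progenitor (FAP)-like cells and 22740 against 445 for monocyte/macrophage-like cells. Of the 2622 cells gated by the myocyte markers, 677 had over 5% of their UMIs in those markers. They are called cells with muscle fibre transcripts.

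**Figure D2:**
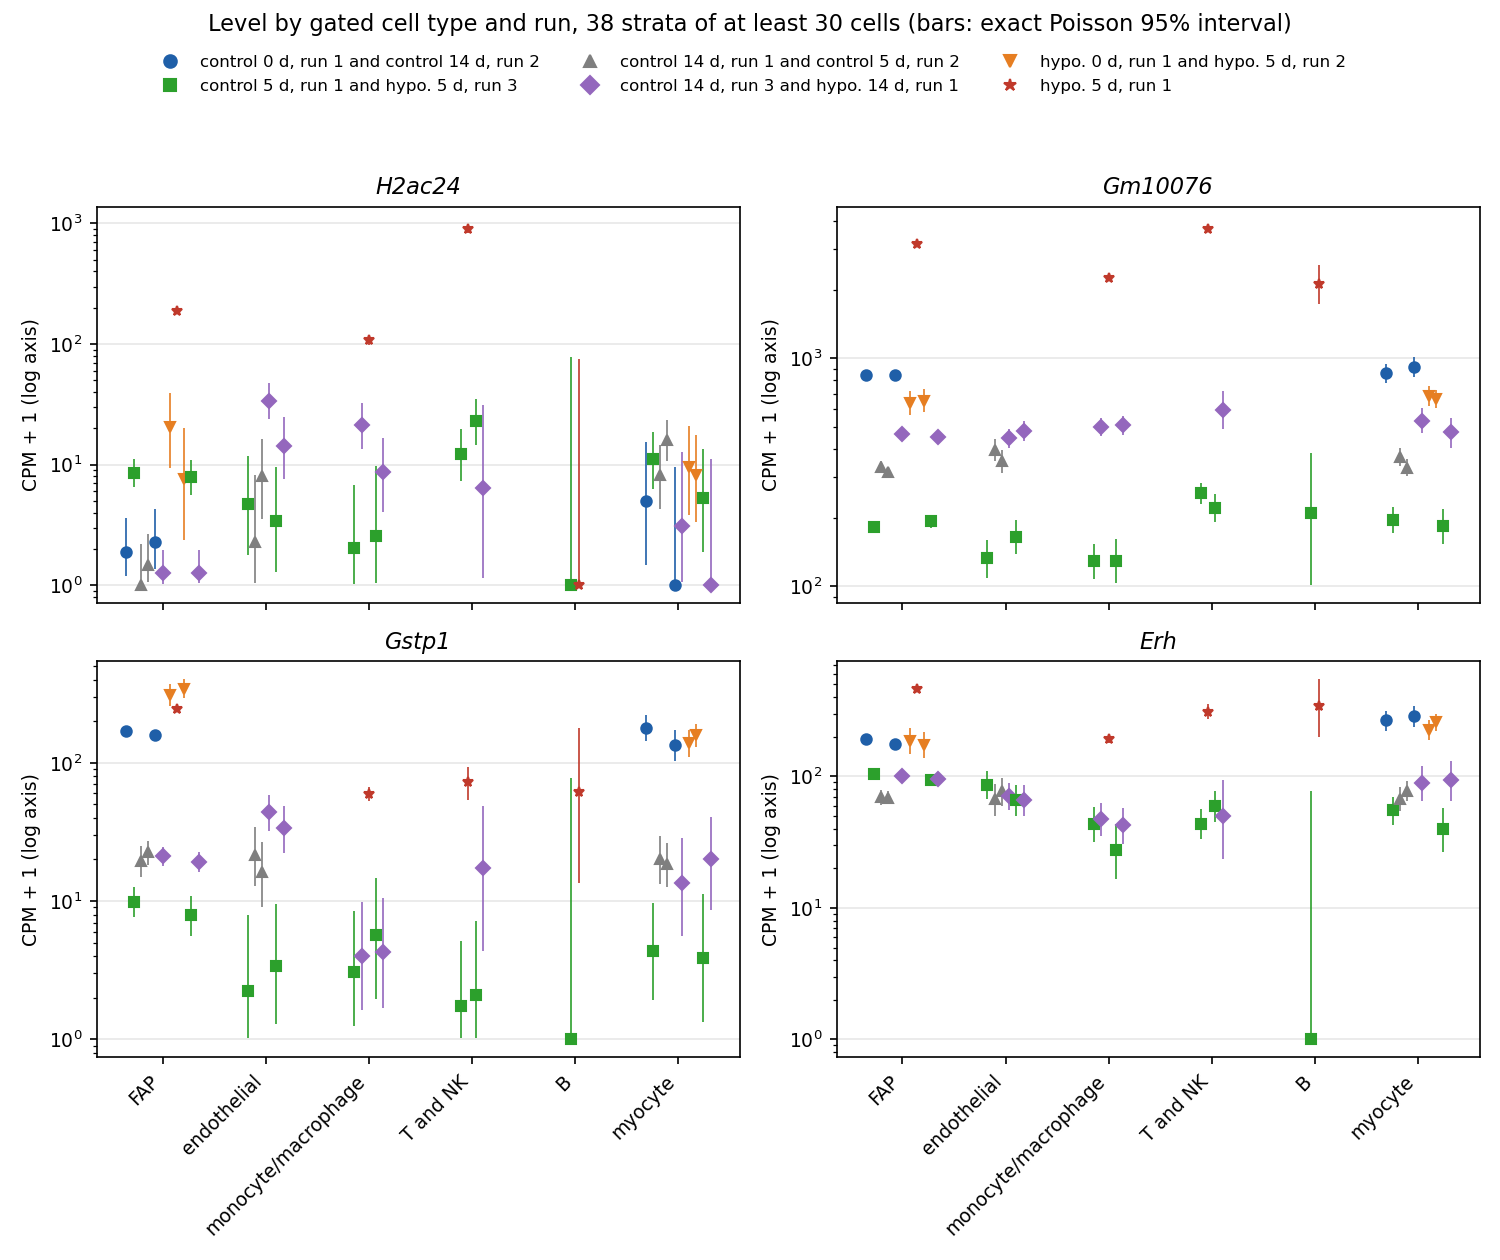
CPM + 1 (log axis) of the 4 genes by gated cell type, each point a stratum of at least 30 cells with its exact Poisson 95% interval, coloured by pair of nearest runs (myocyte stands for cells with muscle fibre transcripts). *Gm10076* kept the order of the pairs of runs in each type, and in FAP-like cells it ran from 180 CPM in control 5 dpi run 1 to 3173 in hypothyroid 5 dpi run 1.

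The steps between runs recurred inside the gated types. In FAP-like cells, present in all 11 runs, *Gm10076* ran from 180 CPM in control 5 dpi run 1 to 3173 in hypothyroid 5 dpi run 1, *Erh* from 67.7 in control 14 dpi run 1 to 464 in hypothyroid 5 dpi run 1, and *Gstp1* from 6.87 in hypothyroid 5 dpi run 3 to 343 in hypothyroid 5 dpi run 2. FAPs are connective tissue cells that multiply and lay down matrix after injury. *H2ac24* in FAP-like cells reached 186 CPM in hypothyroid 5 dpi run 1 and was at 0 of 3096856 UMIs in control 5 dpi run 2, which allows up to 0.969 CPM. In monocyte/macrophage-like cells of 5 runs the highest level of each gene was again in hypothyroid 5 dpi run 1, at 2253 CPM for *Gm10076*, 190.0 for *Erh*, 107 for *H2ac24* and 58.6 for *Gstp1*.

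In lymphoid cells *Gm10076* kept the order of the pairs of runs, while *H2ac24* had too few UMIs to show an order below hypothyroid 5 dpi run 1. In T and NK-like cells of 4 runs *Gm10076* was at 3702 CPM in hypothyroid 5 dpi run 1, 594 in hypothyroid 14 dpi run 1, 254.7 in control 5 dpi run 1 and 219 in hypothyroid 5 dpi run 3. *H2ac24* in these cells was at 901, 5.46, 11.3 and 22.1 CPM in the same sequence of runs, the second on 1 UMI (0.138 to 30.4). *Gstp1* was at 71.1 CPM in hypothyroid 5 dpi run 1 but rested on 1 to 3 UMIs in each of the other 3. B-like cells made 2 strata of 30 cells, where *Gm10076* was at 2111 CPM in hypothyroid 5 dpi run 1 and 209 in control 5 dpi run 1, and *H2ac24* had no UMI in either, which allows up to 60.3 and 62.6 CPM.

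In cells with muscle fibre transcripts (10 runs, without hypothyroid 5 dpi run 1) *Gstp1* ran from 2.86 CPM on 2 UMIs in hypothyroid 5 dpi run 3 to 178 in control 0 dpi run 1, and *Erh* from 38.6 in hypothyroid 5 dpi run 3 to 286 in control 14 dpi run 2. Endothelial cells (6 runs, none of the upper 5) had *Erh* between 65.1 and 85.5 CPM. There *Gstp1* was at 43.0 and 32.5 CPM in control 14 dpi run 3 and hypothyroid 14 dpi run 1, against 3.04 and 3.28 on 3 UMIs each in the monocyte/macrophage-like cells of the same runs. *Gstp1* therefore differed between types within a run as well as between runs.

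The share of the spread (sum of squares of log2(CPM + 1)) over the 38 strata that lay between runs was 96.8% for *Gm10076*, 88.0% for *Gstp1*, 55.3% for *Erh* and 37.7% for *H2ac24*. The share between gated types was 7.63%, 24.8%, 23.1% and 25.4%. Over all 10940 genes the medians were 27.9% between runs and 61.8% between types. *Gm10076* stood at place 2 from the top by its share between runs, *Gstp1* at place 14, *Erh* at place 604 and *H2ac24* at place 2913, so *H2ac24* was the nearest of the 4 to the median gene. The shares of runs and types overlap, since most types were seen in only some runs. Some share falls between runs without any run effect, and more so than between types, since runs were more numerous. Many strata held few UMIs of *H2ac24*, so counting error is part of its spread.

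**Figure D3:**
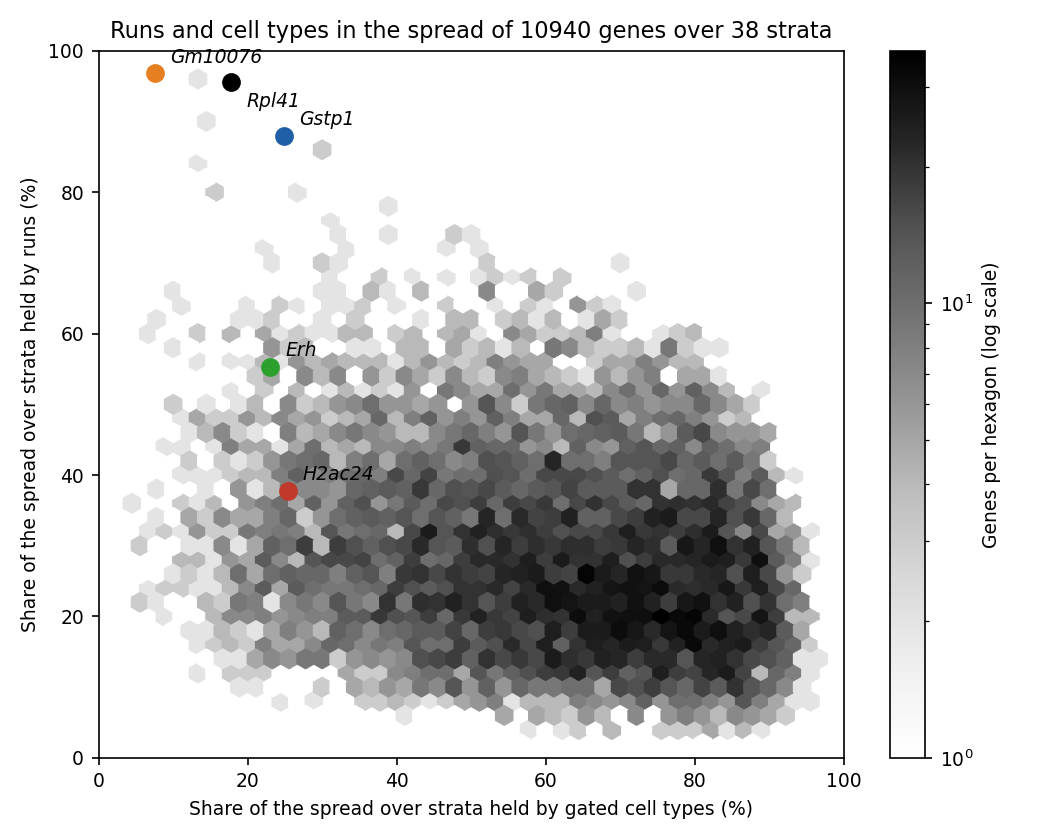
Share of the spread over 38 strata held by runs (vertical, %) against the share held by gated cell types (horizontal, %), for 10940 genes as hexagons shaded by the number of genes, with the 4 genes and *Rpl41* as points. *Gm10076* (96.8%), *Rpl41* (95.6%) and *Gstp1* (88.0%) lay at the top left, and *H2ac24* (37.7%) lay within the body of genes.

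*Rpl41*, whose coding sequence *Gm10076* holds, moved with the runs too but in another order. Its level was 531 and 543 CPM in control 0 dpi run 1 and control 14 dpi run 2, 429 and 440.0 in hypothyroid 0 dpi run 1 and hypothyroid 5 dpi run 2, and between 2122 and 2887 in the other 7 distinct runs. The UMIs of *Gm10076* per UMI of *Rpl41* were therefore read between runs only, since levels of different genes are not compared here. They came to 1.68 in control 0 dpi run 1, 1.63 in control 14 dpi run 2, 1.58 in hypothyroid 0 dpi run 1, 1.43 in hypothyroid 5 dpi run 1 and 1.45 in hypothyroid 5 dpi run 2, and lay between 0.0800 and 0.165 in the other 6. The 5 runs with the high ratio were the upper 5 of *Gstp1* and *Erh*.

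**Figure D4:**
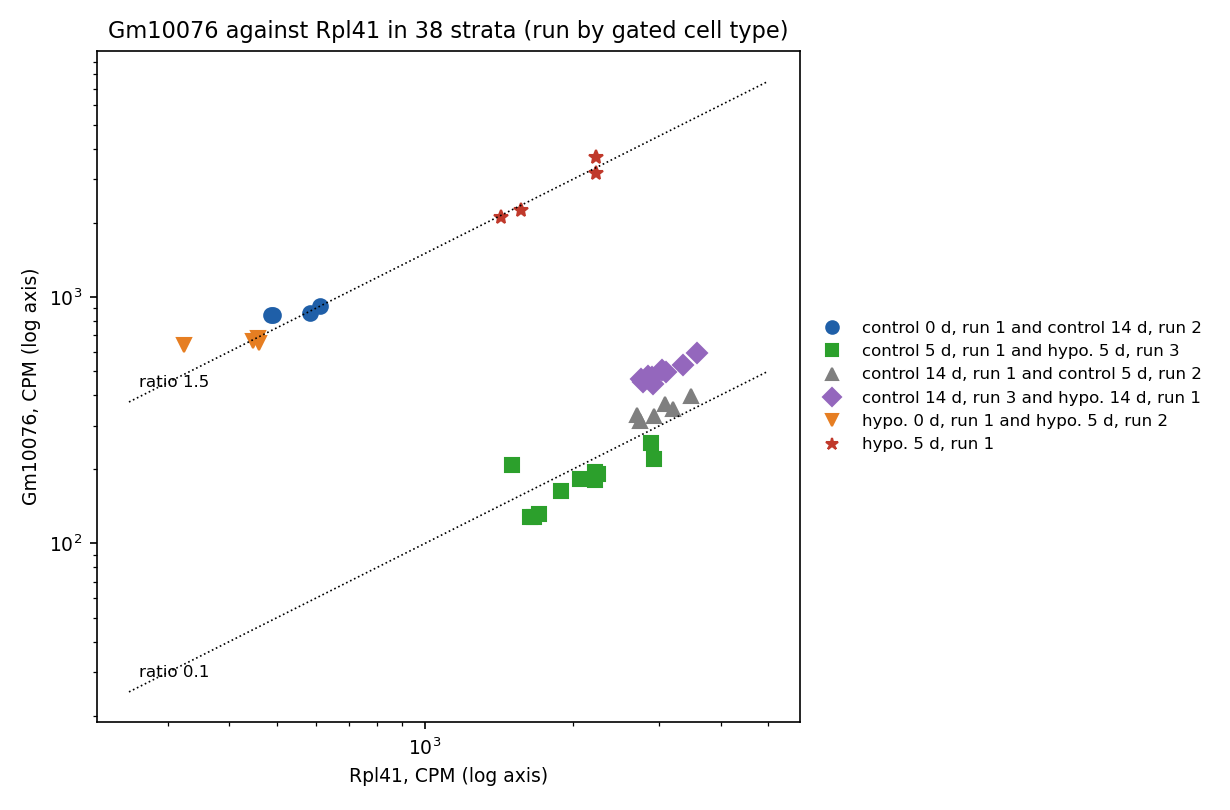
*Gm10076* (vertical) against *Rpl41* (horizontal), both in CPM on log axes, each point 1 of 38 strata coloured by pair of nearest runs, with dotted lines at ratios of 1.5 and 0.1. The strata of 5 runs lay along the upper line, at ratios of 1.42 to 1.97, and those of the other 6 runs near the lower one, at 0.0748 to 0.168.

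The ratio separated the runs in each gated type. It lay between 1.42 and 1.97 in every stratum of the 5 runs and between 0.0748 and 0.168 in every stratum of the other 6. In hypothyroid 5 dpi run 1 it was 1.42 in FAP-like, 1.43 in monocyte/macrophage-like, 1.66 in T and NK-like and 1.48 in B-like cells. In control 5 dpi run 1 it was 0.0813, 0.0782, 0.0882 and 0.139 in the same types. *Gstp2*, the exact copy of *Gstp1* at its 3′ end, rose and fell with *Gstp1*. It was at 18.7, 17.4, 20.6, 15.4 and 38.7 CPM in the upper 5 runs and between 0.280 and 2.06 in the other 6, and *Gstp1* had 5.48 to 23.9 UMIs per UMI of *Gstp2*. *Gstp3*, which shared no window with another place in its last 400 bases, lay between 1.154 and 3.94 CPM in the distinct runs with no such split.

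The comparison that the design implies is hypothyroid over control on each day, made on the first runs only. With 1 library per diet and day it has no replicate check, and diet and library cannot be told apart in it. At 5 dpi all 4 genes were higher in the hypothyroid library, and at least 2-fold higher were 3.33% of the 10658 genes that reached 100 UMIs in one of the libraries, while 18.3% were at least 2-fold lower. Nothing is read from the count of 4, since these values belong to the pattern the genes were chosen for. *Gstp1* was 44.7-fold higher (35.6 to 57.1, from 4.79 to 214 CPM), *H2ac24* 27.9-fold (23.1 to 33.9), *Gm10076* 17.01-fold (16.4 to 17.7) and *Erh* 5.403-fold (5.09 to 5.74). By ratio they stood at places 1, 7, 10 and 45. The median gene was at -0.38 on the log2(CPM + 1) scale in this comparison, so against the median gene each of the 4 was higher still.

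**Figure D5:**
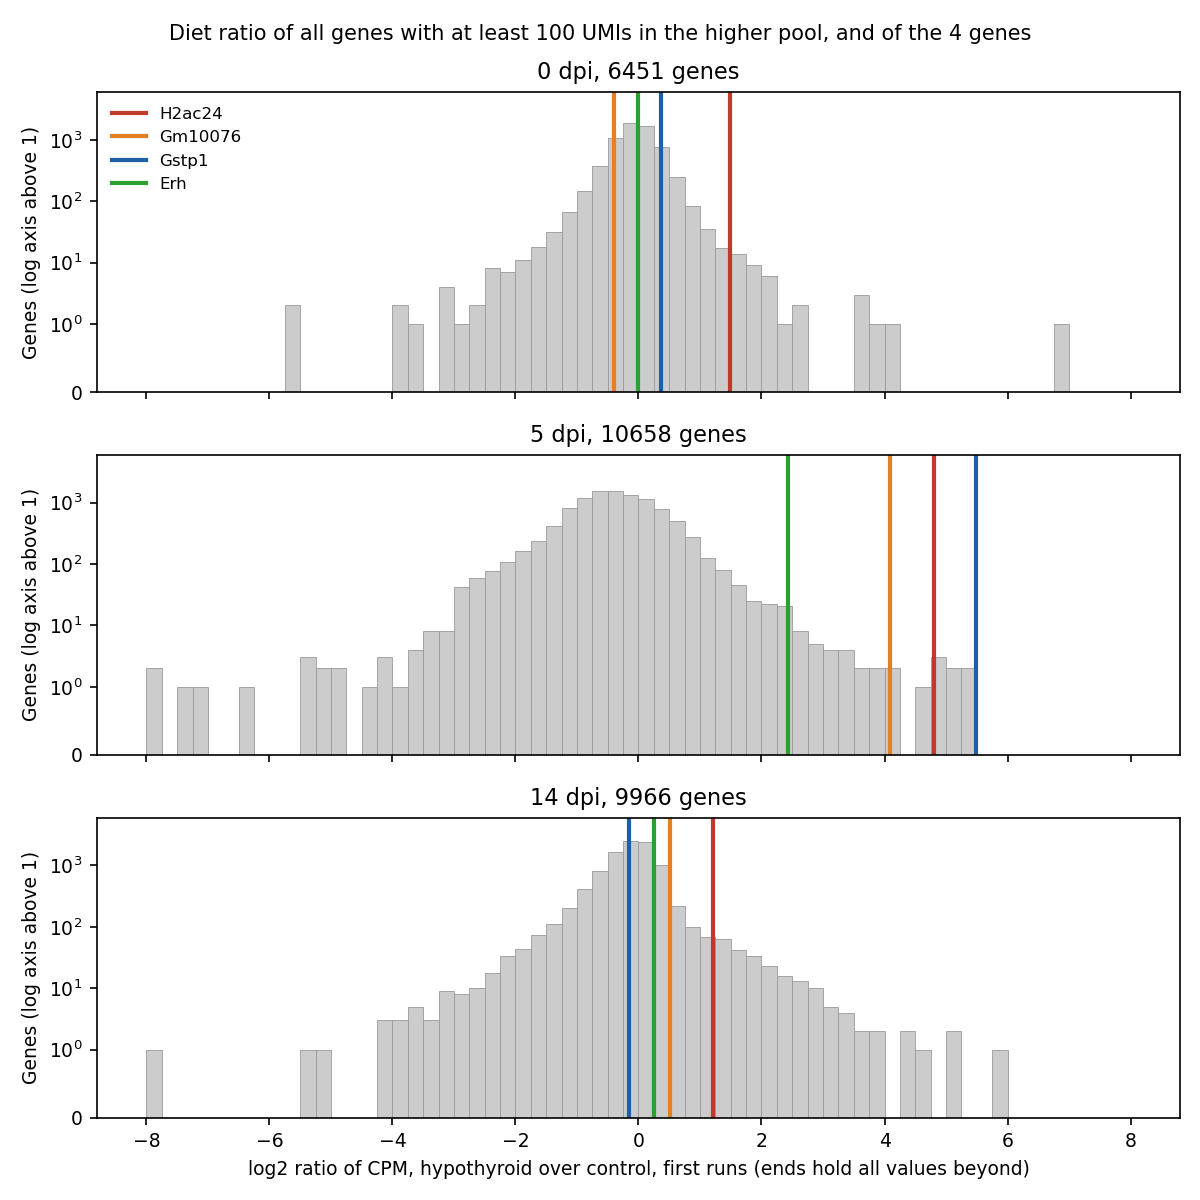
Number of genes (log axis) by log2 ratio of CPM, hypothyroid over control first runs, at 0, 5 and 14 dpi, with the 4 genes as coloured lines. At 5 dpi *Erh* (2.43), *Gm10076* (4.09), *H2ac24* (4.80) and *Gstp1* (5.48) lay in the far upper tail, and at 0 dpi *Gm10076* (-0.40) and *Erh* (-0.01) lay within the body.

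The other days gave other values. At 0 dpi *Gm10076* was at 676 against 891 CPM, a ratio of 0.758 (0.716 to 0.803), *Gstp1* at 201 against 155, a ratio of 1.29 (1.151 to 1.45), and *Erh* at 192 against 193, a ratio of 0.995 (0.889 to 1.11). None of these 3 passed 2-fold, while 1.4% of 6451 genes were at least 2-fold higher and 2.37% lower. *H2ac24* rested on 15 against 14 UMIs at 0 dpi, under the 100-UMI minimum, with a ratio of 2.78 (1.25 to 6.22).

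At 14 dpi *H2ac24* was 2.32-fold higher (1.77 to 3.06), at 157 against 85 UMIs. At least 2-fold higher were 2.89% of 9966 genes, and 5.3% were at least 2-fold lower. In the hypothyroid library 1 cell held 42 of the 157 *H2ac24* UMIs, and in the control 1 cell held 19 of the 85. A UMI was seen in 1.455% against 1.093% of cells, and the interval does not allow for such clumping. *Gm10076* was at a ratio of 1.43 (1.38 to 1.48), *Erh* of 1.20 (1.10 to 1.30) and *Gstp1* of 0.904 (0.762 to 1.07). When all columns of the tables were counted, which added runs 2 and 3 to the control, the ratios were 1.85 for *H2ac24*, which is under 2-fold, 1.0 for *Gm10076*, 0.856 for *Erh* and 0.446 for *Gstp1*.

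FAP-like cells alone gave at 5 dpi 24.7-fold for *H2ac24* (18.4 to 34.1), 17.6-fold for *Gm10076* (16.6 to 18.7), 27.7-fold for *Gstp1* (21.04 to 37.1) and 4.47-fold for *Erh* (4.11 to 4.87), where 2.34% of 7950 genes were at least 2-fold higher. Each of the 4 was thus higher within this type as well. At 14 dpi the FAP-like ratio of *H2ac24* was 0.571 (0.0414 to 7.88) on 2 UMIs in each library, which gives no direction.

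Of the 10658 genes, 17 were at least 10-fold higher at 5 dpi (0.16%), a list made after the values were seen. Beside *Gstp1*, *H2ac24* and *Gm10076* it held *Gstp2* (29.7-fold), *Tac1*, the gene of substance P (30.1-fold), *Ifnb1*, the gene of interferon beta (22.7-fold), *Ube2s*, a ubiquitin conjugating enzyme of mitosis (18.9-fold), *mt-Nd4l*, a mitochondrial subunit of complex I (14.1-fold), *Ccl4*, a macrophage chemokine (10.1-fold), *Hamp*, the gene of the iron hormone hepcidin (36.8-fold, 12.4 to 180.2, on 3 UMIs in the control), and the predicted or less known *Gm31045*, *Gm14327*, *Antkmt*, *Rps18-ps6*, *Gm45570*, *1810009A15Rik* and *Gm36161*. At least 10-fold different in either direction were 0.171% of genes at 0 dpi, 0.403% at 5 dpi and 0.261% at 14 dpi. Of the 42 such genes at 5 dpi with a matched transcript, 18 (42.9%) held a window in their last 400 bases that occurred elsewhere, against 8.13% of all genes in the comparison. *Gstp1*, *H2ac24* and *Gm10076* are among the 18. At 0 dpi it was 4 of 11 (36.4%) against 9.04%, and at 14 dpi 5 of 26 (19.2%) against 7.88%. At 2-fold the share was 8.25% at 5 dpi, 6.61% at 0 dpi and 4.53% at 14 dpi, against the same shares of all genes. In FAP-like cells the 10-fold genes held such a window in 11 of 22 cases at 5 dpi (50.0% against 8.68%), but in 0 of 12 at 0 dpi (against 10.6%) and 0 of 6 at 14 dpi (against 9.29%). At 2-fold the FAP-like share was 13.5% at 5 dpi, 5.56% at 0 dpi and 7.23% at 14 dpi.

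*H2ac24* was concentrated in cells with replication genes. Cells with UMIs of at least 5 of 15 genes of S phase, among them *Mcm2* and *Pcna*, a split added after the values were seen, made up 14.8% of hypothyroid 5 dpi run 1, 13.2% of control 5 dpi run 1 and 14.7% of hypothyroid 5 dpi run 3. They held 4417 of the 4797 *H2ac24* UMIs in the first, 107 of 113 in the second and 70 of 71 in the third. Among these cells the level was 621 CPM in hypothyroid 5 dpi run 1 against 20.6 in control 5 dpi run 1, and among the others 23.2 against 0.586, the last on 6 UMIs. The split was not made at equal depth, and the median UMIs per cell were 8055 and 3846 in these runs. The part of replicating cells in the step was not tested.

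The other 3 genes were less tied to these cells. In hypothyroid 5 dpi run 1 *Erh* was at 621 CPM in S phase cells and 327 in the others, *Gstp1* at 282 and 185, and *Gm10076* at 3480 and 2853. In control 5 dpi run 1 *Erh* was at 122 and 54.0, *Gstp1* at 6.54 and 3.91, and *Gm10076* at 209 and 164. Each of the 3 genes was higher in hypothyroid 5 dpi run 1 in both groups of cells.

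Lists of relatives and partners of the 4 genes were read beside them at 5 dpi, and their members past 2-fold are named after their values were seen. The counts stand beside 3.33% of all genes at least 2-fold higher and 18.3% lower on that day. Of 11 other H2A genes over the minimum, *H2ac8* (85.1 against 18.8 CPM) and *H2ac18* (12.6 against 2.27) were at least 2-fold higher and *H2ac20* (1.45 against 6.67) lower, with a median ratio of -0.29 on the log2(CPM + 1) scale beside -0.38 for all genes. *H2ac8* differed from *H2ac24* by 1 base in the stretch printed here. Of 14 other histone genes none was 2-fold higher and 4 were lower, the linker histones *H1f2*, *H1f3* and *H1f5* and the core histone *H4c4* (median -0.43).

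Of 13 glutathione transferase genes, 3 were higher, *Gstp2*, the microsomal *Mgst1* (145 against 67.3 CPM) and the prostaglandin synthase *Hpgds* (25.3 against 7.52), and none lower (median 0.52). In FAP-like cells 1 of 8 was higher. Of 7 genes listed with *Rpl41*, none was higher and 5 were lower, *Gm2000*, *Rps27rt*, *Rpl9-ps6*, *Rpl10-ps3* and *Wdr89* (median -1.23). Of 7 known or reported partners of ERH none was higher and 2 were lower, the chromatin scaffold genes *Safb* (43.5 against 95.6 CPM) and *Safb2* (40.9 against 83.9), with a median of -0.86. *Dgcr8* and *Drosha*, which start microRNA processing, were at 8.51 against 16.3 and 7.70 against 10.7 CPM. Of 20 immediate early and stress genes 2 were higher, the heat shock genes *Hspa1a* and *Hspa1b*, and 1 lower, *Btg2* (median -0.12), and of 4 nuclear RNAs *Neat1* was lower (median -0.60). At 0 and 14 dpi the 5 lists of relatives and partners held 4 genes past 2-fold in all, *H1f2* (2.30-fold higher) at 0 dpi and *H2ac6* (0.373), *H1f0* (0.445) and *H1f5* (3.87-fold higher) at 14 dpi.

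The genes most like each member over the 38 strata were named by Pearson's r of log2(CPM + 1). The strata share libraries, depth and free RNA, so r describes likeness only. Among the genes most like *Gm10076* were *Rpl35* (0.92) and *Rpl10* (0.76), which encode ribosomal proteins, then *Gstp1* (0.75) and *mt-Nd4l* (0.73), and the most opposite were *Vcp* (-0.77), *mt-Nd1* (-0.75), *Pcbp1*, *Ube2z* and *Wdr89* (each -0.73). *Gstp1* was most like *Ube2s* (0.92), *Sap18* (0.89), *Eif1* (0.87), *Kpna2* (0.86) and *Dpm1* (0.85), and most opposite *Wdr89* (-0.90), *Ube2z* (-0.82), *2510039O18Rik* and *Rps10* (each -0.80) and *Rpl36a-ps1* (-0.78). *Ube2s* was lowest in control 5 dpi run 1 (5.96 CPM) and highest in hypothyroid 5 dpi run 2 (185), and *Wdr89* was highest in control 5 dpi run 1 (158) and lowest in hypothyroid 0 dpi run 1 (4.38).

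*Erh* was most like *Kpna2* (0.87), the gene of a nuclear import receptor, *Phb* (0.86), *Arl3* (0.85), *Ppp2cb* and *1110038B12Rik* (each 0.82), and most opposite *Ago3* and *Tor1aip1* (each -0.77), *Syvn1* (-0.76), *Ppp6r1* (-0.73) and *Nisch* (-0.72). *H2ac24* was most like *H2ac8* (0.70), *Snx6* and *Stmn1* (each 0.69), *Ppia* (0.68) and *Mrpl58* (0.66), and most opposite *Ddx54* (-0.66), *Imp4* (-0.65), *Atf6* (-0.62), *Nop9* and *Zbtb43* (each -0.61). Among the members themselves r was 0.77 for *Gstp1* and *Erh*, 0.75 for *Gm10076* and *Gstp1*, 0.65 for *Gm10076* and *Erh*, and 0.18 to 0.43 for *H2ac24* with the others. Without hypothyroid 5 dpi run 1 these last values were -0.01 to 0.13, while the first 3 were 0.74, 0.81 and 0.55. Of the 37 genes taken by this rule, 13 (35.1%) held a window in their last 400 bases that occurred elsewhere in the genome, against 7.77% of all genes. The 37 include *Gstp1* itself and *H2ac8*, so the share is not independent of the members.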

How the data were processed

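Single cells of mouse TAM were read in 6 pooled libraries, 1 per diet and day. Per the labels and methods, the authors aligned reads with Cell Ranger to the mouse genome and filtered and normalised cells in Partek Flow. The deposited values are log2(CPM + 1) of each gene in each cell, and how reads that fit several places were assigned is not given in the sources used here. UMIs were recovered on the premise that the commonest positive value of a cell stands for 1 UMI, which made 99.934% of 39334018 values whole within 0.05, and were summed per run of columns. The tables held 12436 genes and 20269 columns, of which 18589 were distinct cells. No cells were removed further, and no doublet caller was run.

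Levels are CPM with exact Poisson intervals, shares carry Clopper-Pearson intervals and ratios exact binomial intervals, all at 95%. Strata held at least 30 cells, ratios were read for genes that reached 100 UMIs in one of the libraries, and gaps and likeness for genes with at least 500. Fold calls were at 2-fold and no test was run, since each condition was 1 library. A count of 0 was given a limit of 3 UMIs. Copies were sought as exact matches of 100-base windows of GENCODE transcripts in GRCm39. Genes named were the 4 members, the near-identical genes and partners of ERH, for each member the 5 most alike and 5 most opposite genes, and the 10 genes with the widest gap. One result under this rule is not reported here. The members and lists (other H2A genes, other histones, glutathione transferases, *Rpl41* and predicted ribosomal genes, ERH partners, immediate early and stress genes, nuclear RNAs, haemoglobins and the cell type markers) were chosen with earlier results of these data known. Alternatives were all columns of a table, FAP-like cells only, the mean of the log2 values, another pseudocount, another rule for 1 UMI, deeper cells only, a looser gate, Spearman's rho and whole runs. Scripts used Python 3.11.15, numpy 2.4.6, scipy 1.17.1, pandas 2.3.3 and numba 0.67.0, and were tested on simulated data.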

Additional observations from a re-analysis of the deposited data

Results flagged for a closer look

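The hypothyroid over control ratio of *Gm10076* in the first runs differed between days, at 0.758 at 0 dpi, 17.01 at 5 dpi and 1.43 at 14 dpi. The intervals of the 3 days did not overlap and cover counting error only, and the difference between days was not tested, since each value compares 2 libraries.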

How the results depend on the processing

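No paired analysis was possible because each condition was 1 library, with no replicates to pair. Taking the smallest value as 1 UMI, or cells with at least 1000 UMIs only, moved none of the ratios by more than its interval.

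Counting all columns of each table gave ratios of 0.914 for *H2ac24* at 0 dpi, against 2.78 from first runs, and 1.85 at 14 dpi, against 2.32. For *Gm10076* it gave 0.593, 8.24 and 1.0 at 0, 5 and 14 dpi, for *Gstp1* 14.3 and 0.446 at 5 and 14 dpi, and for *Erh* 4.21 and 0.856 at 5 and 14 dpi. This setting adds the later runs, whose levels differ, by construction. FAP-like cells only gave 21.5 and 0.571 for *H2ac24* at 0 and 14 dpi, on at most 8 UMIs a library, 1.82 and 27.7 for *Gstp1* at 0 and 5 dpi, and 4.47 and 1.40 for *Erh* at 5 and 14 dpi. The mean of log2(CPM + 1) over cells, turned back to a ratio, gave at 0, 5 and 14 dpi 1.003, 2.26 and 1.02 for *H2ac24*, 0.600, 116.5 and 2.92 for *Gm10076*, 1.12, 13.7 and 1.11 for *Gstp1* and 0.669, 15.95 and 1.72 for *Erh*. That mean weighs the share of cells with a UMI, by construction.

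The widest gaps were 3.20 for *H2ac24*, 1.91 for *Gm10076* and 1.27 for *Erh* in FAP-like cells, the last with hypothyroid 5 dpi run 1 alone above in place of 5 runs, and 3.07 for *H2ac24* and 2.34 for *Gstp1* with a pseudocount of 10. Without hypothyroid 5 dpi run 1, an alternative chosen after seeing the data, they were 0.48 for *H2ac24* and 0.81 for *Gm10076*.

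Of the 5 most alike genes of *H2ac24*, *Gm10076*, *Gstp1* and *Erh* in that order, Spearman's rho shared 2, 3, 3 and 1, and whole runs shared 0, 1, 1 and 0. Without hypothyroid 5 dpi run 1 it was 1 for *H2ac24*, 3 for *Gm10076* and 0 for *Erh*, and the gate of 2 markers shared 1 for *H2ac24*. Of the 5 most opposite genes Spearman's rho shared 1, 2, 3 and 1 and whole runs 0 for each. The gate of 2 markers shared 3 each for *H2ac24*, *Gm10076* and *Erh*, and leaving out that run 0, 1, 2 and 1. The named genes of likeness thus depend on the measure, and the cause was not tested. Levels of *H2ac24* under 20 CPM rest on few UMIs, which limits their order.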

Other observations

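The genes with the widest gaps between neighbouring runs on the log2(CPM + 1) scale were other than the 4. *Hbb-bs*, a beta globin gene, had the widest (6.01), with hypothyroid 5 dpi run 1 alone below it, and the same run lay alone below the gaps of *Hba-a1* (4.22), *Hba-a2* (4.22) and *Pvalb* (4.34), the gene of the calcium buffer parvalbumin of fast fibres. *Pf4* (4.98), the complement genes *C1qb* (4.94), *C1qc* (4.87) and *C1qa* (4.56), which macrophages express, and *Hmga2* (4.62) put 7 runs above and 4 below, the 4 being control 0 dpi run 1, control 14 dpi run 2, hypothyroid 0 dpi run 1 and hypothyroid 5 dpi run 2. *Saa3* (4.72), an acute phase gene, put control 5 dpi run 1 and hypothyroid 5 dpi run 3 above the rest.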
